A study of Mus musculus with 5 samples.

Results

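Long intergenic noncoding RNAs (lincRNAs) are transcripts that carry no long open reading frame and start away from protein-coding genes. Their promoters were examined here for peaks of Gfi1 and Lsd1 in MG tumors, a mouse model of medulloblastoma. A promoter was taken when a GENCODE M21 gene of type lincRNA on 1 of the 19 autosomes had a transcription start site (TSS) more than 5 kb from every protein-coding TSS, and it spanned 1 kb on either side of the TSS, with touching windows merged. This gave 4897 regions with 6239 TSSs. They belonged to 4536 of the 5209 autosomal lincRNA genes, and 720 further lincRNA regions lay within 5 kb of a protein-coding TSS. The 4 peak lists together held 125494 peaks.

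The tumors arose from Prominin1+, lineage-negative cells sorted from the cerebella of C57BL/6 wild-type pups aged 5 to 7 days. These cells received retroviruses encoding Myc and Gfi1 and were transplanted into the cerebella of adult immunodeficient NSG mice. Chromatin of frozen tumors 39 and 41 (replicates 1 and 2) was precipitated with 4 µg of a rabbit antibody to Gfi1 or of an antibody to Lsd1, which gave 4 libraries, 2 for each factor. Gfi1 in these cells is driven by a retroviral promoter, each tumor grew from transplanted, transduced cells, and no tumor without added Gfi1 was profiled. The listed input is a pool of MGB tumors, made with Gfi1b in place of Gfi1, and it was not analysed here.

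Gfi1 is a zinc-finger repressor that binds DNA directly. Its N-terminal SNAG domain recruits Lsd1 (Kdm1a), a demethylase that removes methyl groups from histone H3 lysine 4 together with CoREST. Some lincRNAs are hosts of miRNAs or small nucleolar RNAs, some are nuclear scaffolds such as Neat1 and Malat1, and many have start sites marked like enhancers. They are often cell type specific and weakly transcribed, and CpG-rich start sites are less common among them than among protein-coding genes.

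The name intergenic fitted most regions. Of the 4897, 170 had a TSS inside the body of a protein-coding gene, and 193 also contained a TSS of a gene of another type. RefSeq placed an mRNA start within 5 kb of 136 regions that GENCODE left over 5 kb from any coding TSS, and 22 of these had a peak in all 4 libraries. In 4054 regions there was a single window of 2001 bp.

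The sequences below show promoters at both ends of the range, strongly bound ones of moderate CpG content and CpG-rich ones without a peak. They run from 250 bases before to 50 after a TSS in GRCm38 (mm10), with every CG in capitals. The first 4 belong to the promoters with the highest peaks in all 4 libraries, and the last 2 to the most CpG-rich promoters with no peak in any library. The positions are chr8:84197618-84197917, minus strand for Gm26887, chr19:23134650-23134949, plus strand for 2410080I02Rik, chr6:134928905-134929204, plus strand for Lockd, chr2:26138753-26139052, minus strand for Tmem250-ps, chr4:88938472-88938771, minus strand for AL805899.1, a host of the miRNA gene Mir31, and chr12:19044456-19044755, plus strand for Gm40849.
Gm26887: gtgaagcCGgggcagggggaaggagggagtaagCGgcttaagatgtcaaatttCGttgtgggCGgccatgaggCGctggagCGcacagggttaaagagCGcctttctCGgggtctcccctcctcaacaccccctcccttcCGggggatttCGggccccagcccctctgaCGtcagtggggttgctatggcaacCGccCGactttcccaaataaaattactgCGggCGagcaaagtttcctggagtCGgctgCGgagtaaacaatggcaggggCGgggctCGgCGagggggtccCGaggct
2410080I02Rik: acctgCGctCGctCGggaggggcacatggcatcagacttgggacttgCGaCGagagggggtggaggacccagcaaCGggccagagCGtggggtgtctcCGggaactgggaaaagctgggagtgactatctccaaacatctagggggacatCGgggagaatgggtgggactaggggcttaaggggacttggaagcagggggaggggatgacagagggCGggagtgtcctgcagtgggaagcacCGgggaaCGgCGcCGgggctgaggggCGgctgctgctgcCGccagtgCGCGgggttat
Lockd: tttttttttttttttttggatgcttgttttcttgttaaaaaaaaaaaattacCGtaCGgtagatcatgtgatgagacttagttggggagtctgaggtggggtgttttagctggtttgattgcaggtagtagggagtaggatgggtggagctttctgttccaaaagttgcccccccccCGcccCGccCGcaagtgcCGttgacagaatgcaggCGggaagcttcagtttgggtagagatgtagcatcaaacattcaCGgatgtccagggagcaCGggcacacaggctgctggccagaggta
Tmem250-ps: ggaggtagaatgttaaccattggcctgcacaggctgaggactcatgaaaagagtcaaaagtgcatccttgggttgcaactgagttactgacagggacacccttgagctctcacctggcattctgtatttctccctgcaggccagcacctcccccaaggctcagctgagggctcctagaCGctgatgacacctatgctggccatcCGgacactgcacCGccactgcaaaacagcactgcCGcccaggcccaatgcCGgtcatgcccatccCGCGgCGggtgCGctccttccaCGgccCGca
AL805899.1: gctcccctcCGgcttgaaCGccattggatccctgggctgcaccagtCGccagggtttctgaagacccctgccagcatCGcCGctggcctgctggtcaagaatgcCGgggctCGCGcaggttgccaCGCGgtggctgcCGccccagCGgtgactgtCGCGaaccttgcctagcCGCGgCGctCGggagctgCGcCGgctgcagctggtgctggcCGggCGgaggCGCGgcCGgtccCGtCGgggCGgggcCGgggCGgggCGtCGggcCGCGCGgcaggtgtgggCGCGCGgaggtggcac
Gm40849: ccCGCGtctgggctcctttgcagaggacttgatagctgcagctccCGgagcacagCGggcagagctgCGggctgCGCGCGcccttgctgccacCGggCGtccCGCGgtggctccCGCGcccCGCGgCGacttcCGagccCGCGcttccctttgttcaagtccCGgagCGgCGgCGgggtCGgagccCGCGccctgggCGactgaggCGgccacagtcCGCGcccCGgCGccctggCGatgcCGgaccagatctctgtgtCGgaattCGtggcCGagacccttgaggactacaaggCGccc
The 300 bases held 21 CG in Gm26887, 18 in 2410080I02Rik, 9 in Lockd and 11 in Tmem250-ps. They held 38 in AL805899.1 and 39 in Gm40849, more than in any of the 4 bound promoters shown. A high CpG content was thus not enough to mark a member as bound.

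Most lincRNA promoters had no peak of either factor. No peak of any library touched 4195 regions (85.7%, exact 95% binomial interval 84.7 to 86.6), and 702 (14.3%) had a peak in at least 1 library. Most promoters of every gene type also had none (71.3%), and 28.7% had a peak in at least 1 library. Gfi1 peaks were found on 532 regions (10.9%, 10 to 11.8) in tumor 39 and on 369 (7.54%, 6.81 to 8.31) in tumor 41. Lsd1 peaks were found on 471 (9.62%, 8.81 to 10.5) in tumor 39 and on 491 (10%, 9.2 to 10.9) in tumor 41. Among promoters of every gene type, built in the same way, the shares were 26% and 19.9% for Gfi1 in tumors 39 and 41, and 22.8% and 24.3% for Lsd1. In each library the lincRNA share was thus below that of promoters at large. A peak was counted when it shared at least 1 bp with the region, and such a region is called bound. The intervals cover counting error only, and neighbouring regions are not independent.

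The shares of the factors did not differ beyond the spread between tumors. The mean was 9.2% ± 2.35 for Gfi1 and 9.82% ± 0.289 for Lsd1 (SD, n = 2). Gfi1 minus Lsd1 was -0.623 percentage points (exact permutation test over 4 libraries, two-sided p = 1, where the smallest possible p is 0.333). It was 1.25 points in tumor 39 and -2.49 in tumor 41, so that the sign turned between the tumors. Without the Gfi1 library of tumor 41 it was 1.04 points. Paired by tumor, the exact test of sign flips gave p = 1, and it could not fall below 0.5. The order of the shares followed the lengths of the lists, which held 36836 and 25078 Gfi1 peaks and 30367 and 33213 Lsd1 peaks in tumors 39 and 41. The study's Reporting Summary gives more mapped reads for Gfi1 in tumor 41 than in 39 and more for Lsd1 in tumor 39 than in 41, so that for each factor the deeper library had the shorter list. The part of depth in the shares was not tested.

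**Figure D1:**
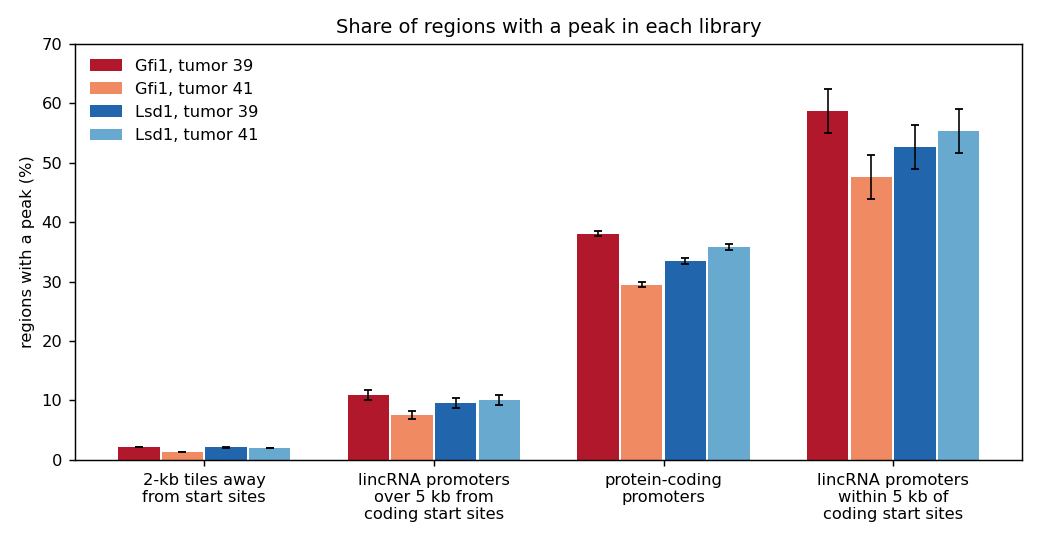
Share of regions with a peak (%, y axis) in the 4 libraries (bar colors) for 2-kb tiles away from start sites, lincRNA promoters over 5 kb from coding TSSs, protein-coding promoters, and lincRNA promoters within 5 kb of coding TSSs. Error bars are exact 95% binomial intervals. The lincRNA promoters lie between 7.54% and 10.9%, above the tiles at 1.35% to 2.12% and below the protein-coding promoters at 29.5% to 38.1%.

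Set against autosomal stretches with no annotated start, the lincRNA promoters as a group carried more peaks. The autosomes were cut into tiles of 2 kb, and 951447 of these lay over 5 kb from protein-coding TSSs and over 1 kb from any TSS. Gfi1 peaks touched 2.12% and 1.35% of them in tumors 39 and 41, and Lsd1 peaks 2.1% and 2.04%. The lincRNA share was 5.13 and 5.57 times higher for Gfi1 and 4.58 and 4.91 times higher for Lsd1. It was higher in 4 of 4 libraries, by 7.61 points on average (exact test of sign flips over 4 libraries, two-sided p = 0.125, which is the smallest it allows). Far from genes the shares were lower. The 1114 members over 200 kb from a coding TSS had 1.8% and 1.35% for Gfi1 and 1.53% and 1.71% for Lsd1. These values were at or below the shares of all tiles. Tiles over 200 kb from a coding TSS were not counted separately, so that an excess at that distance was not tested. Tiles were not matched to members for distance, and members with merged windows are longer than a tile. Some tiles lie in sequence where reads cannot be placed, and the part of this was not tested.

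Protein-coding promoters were bound more often. Of 40839 such regions, 38.1% and 29.5% had a Gfi1 peak and 33.4% and 35.9% an Lsd1 peak in tumors 39 and 41. They exceeded the lincRNA promoters by 24.7 points on average and in 4 of 4 libraries, with gaps of 22 to 27.2 points (exact test of sign flips, two-sided p = 0.125, the smallest possible; the libraries of a tumor are not independent). The size of the gap depended on how promoters were defined. For a peak in all 4 libraries it was 22 points with every TSS, 42.3 points with only the 5' end of each gene (48.5% of 19258 protein-coding against 6.22% of 4467 lincRNA regions), and 5.82 points among regions of a single 2001-bp window (10.8% of 22589 against 4.93% of 4054). The direction was the same under each.

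The lincRNA promoters that the 5-kb rule left out were bound more often than the distant ones. Their shares lay above those of protein-coding promoters with every TSS and below those of protein-coding promoters at gene 5' ends, which had 60.6% and 49.7% for Gfi1 and 54.2% and 57.4% for Lsd1. Of these 720, 58.8% and 47.6% had a Gfi1 peak and 52.6% and 55.3% an Lsd1 peak in tumors 39 and 41. They exceeded the more distant lincRNA promoters by 40.1 to 47.9 points, in 4 of 4 libraries (mean 44.1, exact test of sign flips, two-sided p = 0.125). Within this group a peak of the neighbouring coding promoter can reach the region, and the 2 cannot be told apart.

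Gfi1 and Lsd1 shared most of the lincRNA promoters that recurred in both tumors. A peak in all 4 libraries was present on 291 regions (5.94%, 5.3 to 6.64), against 18.5% of promoters of every gene type. Both Gfi1 libraries had a peak on 312 regions (6.37%, against 19.1% of promoters of every type), of which 309 had an Lsd1 peak in at least 1 tumor. Both Lsd1 libraries had a peak on 383 regions (7.82%, against 21.5%), of which 364 had a Gfi1 peak in at least 1 tumor. Within tumor 39, 69.9% of the regions with a Gfi1 peak had an Lsd1 peak and 79% the other way, below the 83.7% and 95.3% of protein-coding promoters. In tumor 41 these were 91.3% and 68.6%, against 97.7% and 80.5%. A peak in both Gfi1 libraries and no Lsd1 library was left on 3 regions, and the reverse on 19. Both factors had a peak in tumor 39 and neither in tumor 41 on 20 regions, and the other way on 16. These 4 counts were not made for other promoters, so that they are not read as a trait of the members.

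Binding in a single library was more frequent than binding by a single factor in both tumors. It was seen on 214 regions (4.37%), no more often than on protein-coding promoters (5.34%). Of the 214, 106 had only the Gfi1 peak of tumor 39, the longest list. Of the regions with a Gfi1 peak in tumor 39, 58.6% had one in tumor 41, and 84.6% in the other direction. For Lsd1 these shares were 81.3% and 78%. Protein-coding promoters gave 75.6% and 97.4% for Gfi1 and 95.6% and 89.1% for Lsd1, so that in each direction the lincRNA promoters recurred less often between tumors in these lists. This difference between the groups was not tested.

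**Figure D2:**
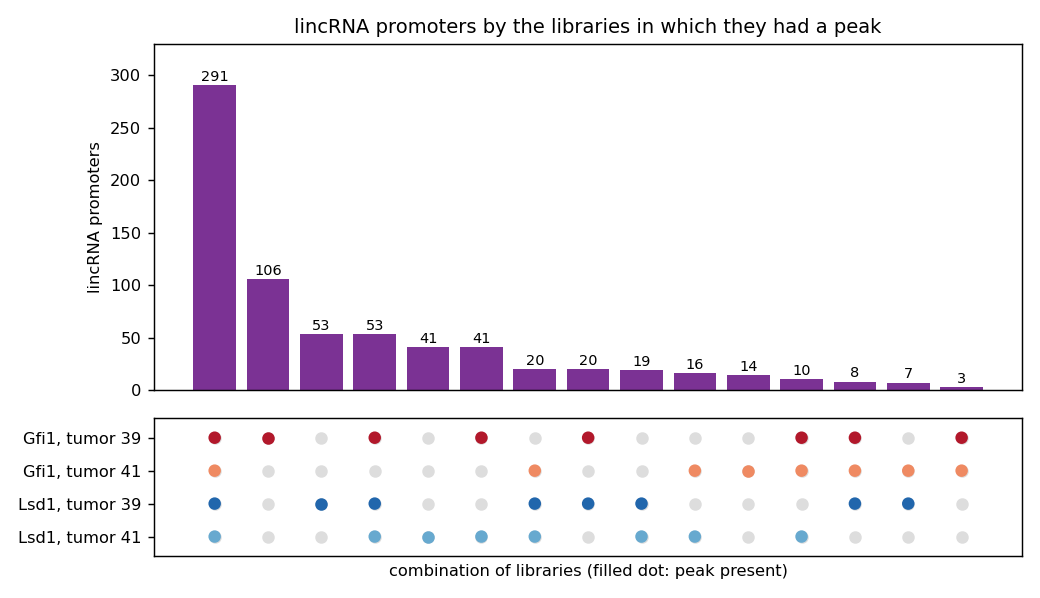
Number of lincRNA promoters (y axis) for each combination of libraries in which they had a peak; filled dots below each bar mark those libraries. The tallest bar, 291 regions, is the combination of all 4, followed by 106 with only Gfi1 in tumor 39, and 3 regions had both Gfi1 libraries alone.

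Peaks on lincRNA promoters ranked in the middle of their lists. Since scores of different libraries are on different scales, each was turned into its percentile within its own list, and a region took that of its highest peak. That peak need not cover the TSS. The median percentile of Gfi1 peaks was 55.6 in tumor 39 and 52.2 in tumor 41, and that of Lsd1 peaks 55.3 and 54.6. On protein-coding promoters it was 78.2 and 73.8 for Gfi1 and 75.5 and 77.1 for Lsd1. Peaks in the upper 20% of a list were found on 77 and 66 lincRNA promoters for Gfi1 (14.5% and 17.9% of the bound ones) and on 93 and 89 for Lsd1 (19.7% and 18.1%). On bound protein-coding promoters 46.5% and 39.6% of Gfi1 peaks and 42.1% and 44.6% of Lsd1 peaks were of this kind. On tiles without a TSS the medians were lower, between 38.2 and 43.8.

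With the high-confidence rule, by which a replicate 1 peak of the upper 20% has at least 50% of its length in upper 20% peaks of replicate 2, few members remained. They were 49 for Gfi1 (1%, 0.741 to 1.32) against 6.88% of promoters of every type, and 67 for Lsd1 (1.37%, 1.06 to 1.73) against 8.23%. Both factors met the rule on 42 regions. Over the regions with a peak in both libraries of a pair, Spearman's rho of the percentiles was 0.73 between the Gfi1 libraries (312 regions) and 0.83 between the Lsd1 libraries (383). Between factors it was 0.72 in tumor 39 (372 regions) and 0.78 in tumor 41 (337), values that describe regions sharing sequence composition and annotation.

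**Figure D3:**
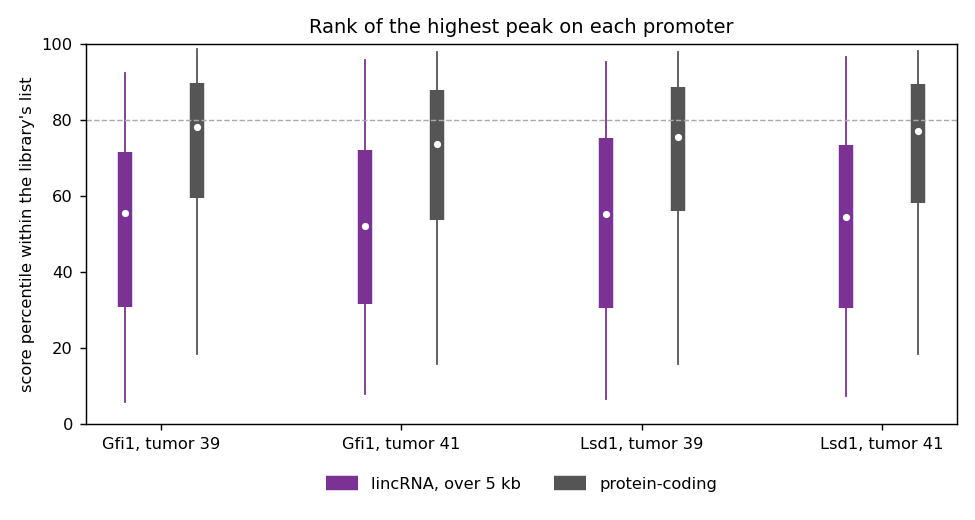
Score percentile within the list (y axis) of the highest peak on lincRNA and protein-coding promoters in each library. Circles are medians, thick bars the middle 50% and thin lines the 5th to 95th percentiles; the dashed line marks the upper 20%. The lincRNA medians, 52.2 to 55.6, lie below the protein-coding medians, 73.8 to 78.2.

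The peaks sat on the lincRNA start itself more often than beside it. The highest peak covered a member TSS in 77.1% and 73.7% of bound regions for Gfi1 and in 76% and 77% for Lsd1 (tumors 39 and 41). Over regions with a single TSS, the peak's midpoint lay on either side of the TSS. Counted in the direction of transcription, its median offset was 51 bp (quartiles -368 and 527) and 73 bp (-404 and 609) for Gfi1 and 17 bp (-472 and 594) and 58 bp (-348 and 596) for Lsd1. The midpoint was within 500 bp of the TSS in 47.9% to 52.9% of these. Regions were centred on their TSSs, so that the rule itself favours peaks over a TSS and a small median offset. No share expected from placement alone was computed. The peak also reached a GENCODE protein-coding TSS in 1 and 1 region for Gfi1 and 3 and 4 for Lsd1. Members lie over 5 kb from those TSSs by definition, so that only wide peaks could reach both. Of all peaks over 5 kb from coding TSSs, 3.77% and 4.3% for Gfi1 and 3.94% and 3.84% for Lsd1 touched a lincRNA promoter, and about 9 in 10 (89.8% to 90.6%) touched no annotated TSS of any kind.

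The share of bound members rose with CpG content. CpG content was measured as the number of CG observed over that expected from the C and G content, within 500 bp of the TSSs. Peaks in all 4 libraries were found on 2.47% of the 2952 lincRNA promoters below 0.25 and on 7.07% of the 1669 from 0.25 to 0.5. They were found on 31.4% of the 226 from 0.5 to 0.75 (25.4 to 37.9) and on 58% of the 50 at 0.75 and over (43.2 to 71.8). Each step brought a higher share. The steps were not tested, since the intervals cover counting error only and neighbouring regions are not independent. The 291 regions had a median of 0.384, the 411 bound in 1 to 3 libraries 0.296, and the 4195 unbound 0.203. Many bound members were nevertheless CpG-poor, since 100 of the 291 (34.4%) reached 0.5 and 191 did not.

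At like CpG content lincRNA promoters were still bound less often than protein-coding ones. In the same 4 steps the protein-coding shares were 3.82%, 16.4%, 70.6% and 87%, above those of the lincRNA promoters in each. Single windows were 4054 of the 4897 lincRNA and 22589 of the 40839 protein-coding regions, so that more of the latter were longer. The steps were not repeated at equal length. At 0.5 and over, 36.2% of 276 lincRNA promoters (30.6 to 42.2) had a peak in all 4 libraries, against 77.6% of 11265 protein-coding promoters (76.8 to 78.4). Lying further out went with a lower share within this CpG-rich set too, with 48.3% of 149 regions (40.1 to 56.6) at 5 to 50 kb from a coding TSS and 22% of 127 (15.2 to 30.3) over 50 kb. The lincRNA promoters within 5 kb of coding TSSs had 11.2%, 35.8%, 73% and 82.4% in the 4 steps, above the protein-coding values in the 2 lower steps and near them in the 2 upper ones.

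The 276 CpG-rich lincRNA promoters differed more between libraries, in percentage points, than the rest. Gfi1 peaks were present on 59.1% of them in tumor 39 and on 37.3% in tumor 41, and Lsd1 peaks on 40.6% and 46.7%. Below 0.5 the same shares were 7.99%, 5.76%, 7.77% and 7.83%. Protein-coding promoters gave 93.4%, 78.5%, 83.6% and 88.5% at CpG 0.5 and over, and 17%, 10.9%, 14.3% and 15.8% below. The wider spread in points at high CpG content was thus not particular to lincRNA promoters. In all, 108 of the 276 CpG-rich members had no peak in any library, against 695 of the 11265 CpG-rich protein-coding promoters.

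**Figure D4:**
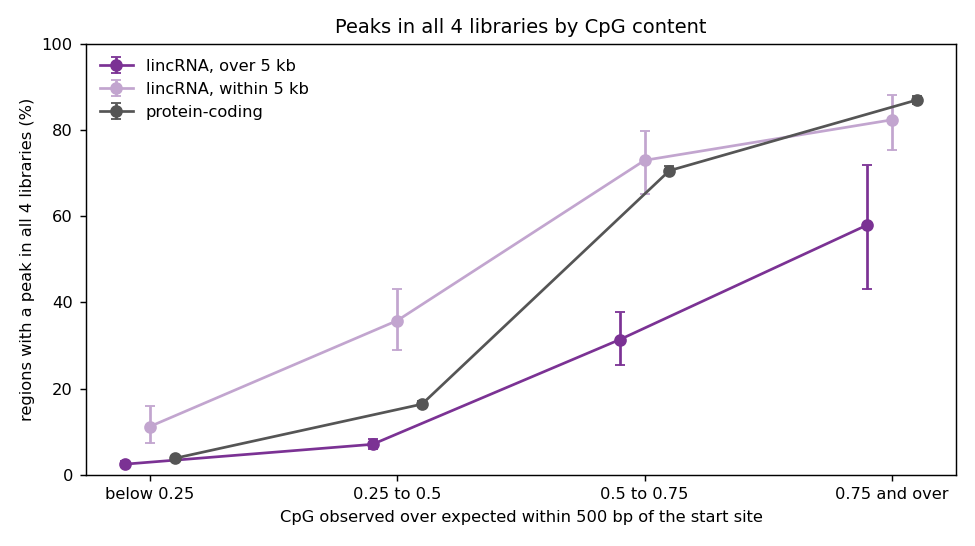
Share of regions with a peak in all 4 libraries (%, y axis) by CpG observed over expected within 500 bp of the start site (x axis, 4 steps). Points are shares and bars exact 95% binomial intervals for lincRNA promoters over 5 kb from coding TSSs, those within 5 kb, and protein-coding promoters. The distant lincRNA promoters go from 2.47% to 58%, below protein-coding promoters in each step.

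The share fell with distance from coding genes. A peak in all 4 libraries was found on 14.1% of the 304 regions at 5 to 10 kb (10.4 to 18.6), 9.3% of the 1635 at 10 to 50 kb, 4.61% of the 1844 at 50 to 200 kb and 0.987% of the 1114 further out (0.494 to 1.76). The share also fell with repeat content, from 7.36% of the 3058 regions with under 25% of soft-masked bases to 4.14% of 1473, 1.67% of 239 and 0.787% of 127 in the next steps. Reads are hard to place in repeats, and the part of mappability was not tested. Regions with a TSS of another gene type were bound in all 4 libraries in 17.1% of cases (12.1 to 23.2), against 5.48% without one. Regions with more TSSs are also longer, and 4.93%, 9.79% and 12.9% of those with 1, 2 and more TSSs had a peak in all 4 libraries.

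Short sequence motifs were counted as exact matches on both strands in the 2001-bp members. The Gfi1 core AAATCAC was present in 26.5% of the 200 such regions bound in all 4 libraries, in 28.6% of the 3537 with no peak, and in 26.9% of 44157 promoters of every type. The longer AATCANNGC, which can overlap it, was present in 18.5%, 19.5% and 17.9%. Neither Gfi1 motif was thus more frequent in bound members. In members of CpG 0.5 and over AAATCAC was present in 22.6% of bound and 30.3% of unbound regions, and AATCANNGC in 19.4% and 21.3%. The median GC content was 50.3% in members bound in all 4 libraries and 44.3% in unbound ones. These shares were not adjusted for it, so that they do not settle whether the motifs are enriched. The 4 motifs that hold a CG were more frequent in bound members taken as a whole. The E-box CACGTG, which Myc binds, was present in 34% of bound and 21.8% of unbound members, against 21% of promoters of every type. The ETS motif CCGGAAG was present in 20.5% and 8.48%, against 8.77%. The Sp/KLF motif GGGGCGGGG was present in 23% and 4.33%, against 6.18%, and the NRF1 motif GCATGCGC in 7% and 2.86%, against 3.11%.

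Of motifs without a CG, the CTCF core CAGGGGGC was present in 8.5% of bound and 5.03% of unbound members, against 6.25% of promoters of every type. The AP-1 motif TGANTCA was present in 39.5% and 49.5%, against 44.5%. Within members of CpG 0.5 and over the contrast in CACGTG was 33.9% of 62 bound against 29.2% of 89 unbound regions, that in CCGGAAG 24.2% against 16.9%, and that in GGGGCGGGG 33.9% against 11.2%. In the same set GCATGCGC went the other way, with 3.23% of bound and 6.74% of unbound regions, as did CAGGGGGC with 3.23% and 7.87%. A match is a run of letters and was not tested as a binding site.

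The highest-ranked members carried wide peaks of both factors. Gm26887 (chr8:84196667-84198667), 12.4 kb from the coding TSS of Nanos3, had the Gfi1 percentiles 98.6 and 100 in tumors 39 and 41 and the Lsd1 percentiles 99.7 and 99.2, from peaks of 9010 to 10338 bp. The median peak width was 1443 and 1596 bp in the Gfi1 lists and 1765 and 1606 bp in the Lsd1 lists. A shared score of 3100.00 is held by 805 Gfi1 peaks of tumor 39 and by 113 and 419 Lsd1 peaks of tumors 39 and 41, which sets the repeated percentiles 98.6, 99.7 and 99.2, so that the order at the top of these lists is not resolved.

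2410080I02Rik (chr19:23133900-23135900) starts 6.33 kb from Klf9, which encodes a Krüppel-like transcription factor. It had 98.6 and 99.4 for Gfi1 and 99.7 and 99.2 for Lsd1. Lockd, which starts 8.58 kb from the Cdkn1b TSS (chr6:134928092-134931112, shared with Gm44238), had 98.6 and 99.1 for Gfi1 and 99.1 and 99.2 for Lsd1. Cdkn1b encodes the cyclin-dependent kinase inhibitor p27. The region of Tmem250-ps and 1810012K08Rik had 98.3 to 98.9 in the 4 libraries, but RefSeq places an mRNA start 15 bp from it, so that it is a coding promoter in that annotation. All 3 regions held high-confidence peaks of both factors.

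The other regions of the first 12 were those of Neat1, AC141471.6, 6720427I07Rik, Gm6410, AC141471.3, Gm10685, Gm12974 and 5430416N02Rik, with lowest percentiles from 92.6 to 97.5. AC141471.6 and AC141471.3 lie 35.6 and 19.6 kb from the coding TSS of Cxxc5. RefSeq mRNA starts lay 3848 bp from Gm10685 and 1275 bp from Gm12974. The highest peaks on Gm12974 for Gfi1 in tumor 41 and for Lsd1 in both tumors ended before its TSS. Peaks over that TSS ranked 27.2 for Gfi1 in tumor 41 and 35.4 for Lsd1 in tumor 39, and Lsd1 in tumor 41 had none there. Its high ranks in these libraries are thus those of a neighbouring peak. Each of the 12 held high-confidence peaks of both factors. Since they were ranked by the same scores, this is a description.

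Well-known lincRNAs were followed as a list of 74 symbols by role, of which 26 were member genes, 30 had another gene type in GENCODE, 6 were lincRNAs within 5 kb of a coding TSS and 12 had no autosomal gene of that symbol. A region in all 4 libraries was found for 14 of the 26, for 6 only regions in 1 to 3 libraries, and for 6 no peak. The list favours well-described genes, and its share was not tested against other members. Values are given as percentiles for Gfi1 in tumors 39 and 41, then for Lsd1 in tumors 39 and 41.

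All 4 nuclear or abundant RNAs had a region bound in every library. Neat1, the scaffold of paraspeckles, had 97.5, 99.8, 99.7 and 99.2 at its promoter (chr19:5844259-5846478). The peaks there were 14391 to 15864 bp wide. Its second region (chr19:5827012-5829012) had 48.5, 34.8, 82.3 and 54.2. Malat1, an RNA of nuclear speckles, had 88.7, 99.8, 96.8 and 98.1 at its promoter (chr19:5801671-5803672), from peaks of 5017 to 22611 bp. Its second region, inside the gene, had 50.3, 99.8, 96.8 and 86.1, and in Gfi1 tumor 41 and Lsd1 tumor 39 this was the same peak. The mouse counterpart of NORAD, 2900097C17Rik, had 87.4, 65.0, 56.7 and 68.6. Miat, a nuclear RNA of neural cells, had 75.1, 62.5, 73.4 and 89.2.

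Of 6 genes tied to growth, p53 or developmental loci, 4 had such a region. Trp53cor1 (lincRNA-p21), a p53-induced RNA 11.8 kb from the TSS of Cdkn1a, had 89.1, 75.7, 86.6 and 91.3 at 1 region (chr17:29078179-29080179) and no peak at the other. Pvt1, the neighbour of Myc, had 71.0, 66.7, 63.4 and 61.0 at its 5' region, 50.6 kb from the Myc TSS. Of its 4 other regions, 3 had no peak and 1 had a Gfi1 peak in tumor 39 at percentile 4.1. Carmn had 65.7, 60.3, 71.8 and 69.5. Lockd is described above, and Hotair and Halr1 of the Hox clusters had no peak.

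Of the 4 neural and 3 imprinted genes of the list, 1 had a region in all 4 libraries. Over all members 85.7% of regions had no peak, so that an unbound gene is the usual case. Rmst, an RNA of neuronal differentiation, had no peak at any of 5 regions. Pantr1, beside the neural gene Pou3f3, had none at 2, and Paupar, 7.56 kb from the TSS of Pax6, had none at 1. Lncpint, a p53-responsive RNA listed with them, had 96.8, 90.3, 88.9 and 100 at its 5' region (chr6:31215366-31221488), lower values, down to 31.9, at another region and no peak at the other. Of the imprinted genes, Meg3 had a Gfi1 peak in tumor 39 alone at percentile 61.5, H19 the same at 7.7, and Mirg 59.1 for Gfi1 and 47.4 for Lsd1 in tumor 39 at 1 of 5 regions. Absence of a peak means that none passed the caller in that library and does not show that the factor was absent.

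**Figure D5:**
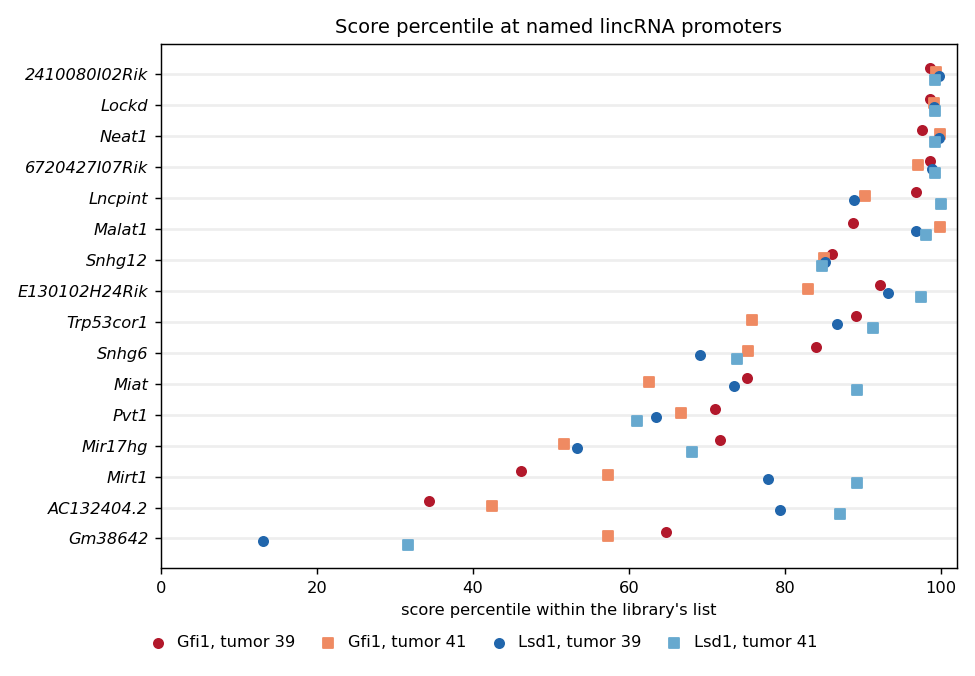
Score percentile within the list (x axis) at the most strongly ranked region of 16 named lincRNA genes (y axis); red and orange points are Gfi1 and dark and light blue points Lsd1, circles tumor 39 and squares tumor 41. Points of 2410080I02Rik, Lockd and Neat1 lie at 97.5 or above in all libraries, and those of AC132404.2 and Mirt1 are split by factor.

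Promoters of genes that contain a miRNA gene had a peak in all 4 libraries in 15.9% of 88 regions (8.98 to 25.2), those with a snoRNA gene in 15.2% of 33 (5.11 to 31.9), and those with neither in 5.7% of 4776 (5.05 to 6.39). A gene with several regions enters more than once. The mature miRNAs of the hosts described next are shown, as RNA 5' to 3' from RefSeq (GRCm38.p6), with the seed (bases 2 to 8, which pair with targets) in capitals.
let-7a-5p: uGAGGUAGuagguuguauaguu
let-7d-5p: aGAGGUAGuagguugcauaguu
let-7f-5p: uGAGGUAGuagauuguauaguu
miR-9-5p: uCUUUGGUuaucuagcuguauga
miR-101a-3p: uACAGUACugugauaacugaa
miR-17-5p: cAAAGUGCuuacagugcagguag
miR-20a-5p: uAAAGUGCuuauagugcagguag
The 3 let-7 miRNAs share the seed GAGGUAG, and miR-17 and miR-20a share AAAGUGC. The miR-9, miR-101a and miR-17 families have seeds of their own.

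The host of the let-7 cluster had the highest-ranked peaks of this kind. 6720427I07Rik (chr13:48545500-48547500), 32.9 kb from the nearest coding TSS, had 98.6, 97.0, 98.8 and 99.2. The let-7 family restrains growth genes during differentiation. C130071C03Rik, which hosts Mir9-2 and is known in neural progenitors, had 4 regions with a peak in each library. At 2 of them (chr13:83727106-83730582 and chr13:83731566-83733566) the values were 98.6, 96.2, 90.8 and 96.2, because the same peaks of 4179 to 5389 bp reached both.

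The other genes with a copy of miR-9 were bound in fewer libraries. Mir9-3hg had 72.3 and none for Gfi1 and 21.7 and 43.6 for Lsd1 at its highest region, and Gm3764, the host of Mir9-1, had 57.8 and none for Gfi1 and none and 17.4 for Lsd1. E130102H24Rik, the host of Mir101a, had 92.2, 83.0, 93.2 and 97.4. Mir17hg, host of the oncogenic miR-17-92 cluster and a classic Myc target, had 71.6, 51.6, 53.3 and 68.1. Its value for Gfi1 in tumor 41 came from a second peak downstream, and the peak over the TSS ranked 45.8. Mir124-2hg had no peak, and Mir124a-1hg had a Gfi1 peak in tumor 39 alone at percentile 32.6. These genes host miR-124, a miRNA of differentiated neurons.

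Host genes of snoRNAs carry, in their introns, small RNAs that guide RNA modification. Of 33 such regions 5 had a peak in any library (15.2%), and these 5 had one in all 4, while 14% of the regions with neither kind of small RNA had a peak in any library. Snhg12 had 86.0, 85.0, 85.1 and 84.8. Snhg6 had 84.0, 75.3, 69.1 and 73.9. 2700038G22Rik, the host of Snord93, had 91.2, 90.3, 84.6 and 88.2. Snhg20, in which the annotation places the miRNA gene Mir6516 and no snoRNA gene, had 90.9, 68.7, 99.0 and 84.2.

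The direction of the difference in rank between the factors often turned between the tumors. Of the 291 regions bound in all libraries, the percentile was higher for Gfi1 in both tumors on 51 and higher for Lsd1 in both on 98. On 142, the largest group, the tumors differed in direction. Agreement between the tumors was not tested, and the same counts were not made for other promoters. AC132404.2, 5.63 kb from the TSS of Uqcc2, had 34.3 and 42.4 for Gfi1 against 79.3 and 87.0 for Lsd1. Gm37584 had 36.9 and 24.4 against 77.6 and 70.3, AC026385.1 had 60.3 and 46.7 against 96.1 and 90.5, and Mirt1 had 46.1 and 57.3 against 77.8 and 89.2. These 4 were picked for that difference, as were the 4 in the other direction. The Lsd1 value of Gm37584 in tumor 41 came from a peak beside its TSS, and the peak over the TSS ranked 45.1. The Gfi1 peaks behind the values of AC132404.2 also lay beside its TSS.

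Toward Gfi1, Gm38642 had 64.8 and 57.3 against 13.1 and 31.7 for Lsd1. Gm44738 had 53.8 and 38.5 against 32.6 and 12.3, Gm45332 had 23.6 and 47.2 against 0.2 and 29.2, and Gm37494 had 50.2 and 55.7 against 33.7 and 31.5. RefSeq places mRNA starts 28 bp from Gm37494, 13 bp from Gm29266 and 4591 bp from Gm37584, so that the first 2 are coding promoters in that annotation. The 3 regions bound by Gfi1 in both tumors and by Lsd1 in neither ranked low, with Gm29266 at 29.0 and 33.4, 1700063D05Rik at 31.1 and 29.6 and AI839979 at 42.8 and 6.5. Of the 19 bound by Lsd1 alone in both tumors, 5930438M14Rik had 65.0 and 63.4, AC132452.2 had 65.2 and 61.4 and Gm48558 had 55.1 and 34.0. The peaks of Gm38642, 1700063D05Rik, 5930438M14Rik and AC132452.2 lay beside the TSS without covering it, and those of 5930438M14Rik touched only the edge of its region. Since the regions were chosen by these values, no test was made of them.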

How the data were processed

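ChIP-seq libraries of Gfi1 and Lsd1 from 2 MG tumors were examined, with 1 peak list per library. The authors aligned reads to mm10 with BWA 0.6.2, merged runs with Picard, discarded duplicate reads and ran MACS (default parameters) on each library by itself, with input chromatin as control. The deposited lists give a score per peak, whose definition is not given in the sources used here, so that it was used only as a percentile within its list. They hold no read counts, and the precision of a single peak is unknown. Start sites were taken from GENCODE M21 (the authors used release M9) and sequence from GRCm38.p6, and no peak ran past the end of a chromosome of that build. Shares were compared over libraries with exact permutation or sign-flip tests, and exact 95% intervals cover counting error only. The tumor number in the labels pairs the Gfi1 and Lsd1 libraries, and the second tumor is the only replicate. Overlaps were tested on simulated data. Members and lists were chosen with earlier results of these data known. Named regions were the well-known lincRNAs, the 12 with the highest lowest percentile, 4 in each direction of difference between factors, 3 per factor found in that factor alone, and hosts of small RNAs in all 4 libraries, up to 8 by lowest percentile; further hosts and RefSeq neighbours were added once their values had been seen. The seed table matched 44 of 49 miRNA symbols. Alternatives varied the window, the distance, the start sites, the peak filter, the overlap and the libraries. Python 3.11.15, numpy 2.4.6, scipy 1.17.1 and matplotlib 3.10.9 were used.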

Additional observations from a re-analysis of the deposited data

Results flagged for a closer look

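From tumor 39 to tumor 41 the share of lincRNA promoters with a Gfi1 peak changed by -3.33 percentage points and that with an Lsd1 peak by 0.408 points, in opposite directions. With 1 pair of libraries per factor the difference was not tested. The lists changed in length the same way, from 36836 to 25078 peaks for Gfi1 and from 30367 to 33213 for Lsd1.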

How the results depend on the processing

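Protein-coding promoters had the higher share in each alternative run, and the sizes moved. The sign of Gfi1 minus Lsd1 was kept with other regions and peak filters and turned with the library left out, from -2.29 points to 1.04 (without Gfi1 of tumor 41), a range added after seeing the data. The replicate block left Gfi1 minus Lsd1 at -0.623 points. By tumor, 62.9% and 63.4% of the regions bound by either library were shared between Gfi1 and Lsd1 of different tumors and 59% and 64.4% within a tumor. In the following the share for Gfi1, the share for Lsd1, the share in all 4 libraries and the excess of protein-coding promoters in all 4 libraries are given in this order, in percent and points, where the main values were 9.2, 9.82, 5.94 and 22. With peaks of the upper 20% they were 1.46, 1.86, 0.878 and 8.27. Over 50 kb from coding TSSs they were 5.71, 6.08, 3.24 and 24.7, and with 2 kb on either side 10.8, 11.6, 6.94 and 24. With the midpoint of the peak in the region they were 7.51, 7.55, 3.9 and 19.2. In single windows of 2001 bp, chosen after seeing the data, they were 7.98, 8.49, 4.93 and 5.82. The Lsd1 share, whose SD is small, also moved to 9.03 with 500 bp, 9.05 over 10 kb, 10.2 with gene 5' ends, 9.33 without TSSs of other types and 9.49 without RefSeq neighbours, the last also added later. The excess was 42.3 with gene 5' ends, 41.4 at CpG 0.5 and over and 4.89 below, both added later. The causes were not tested. Leaving out each library in turn gave 7.54 to 10.9 for Gfi1, 9.62 to 10 for Lsd1, 6.11 to 7.02 in all remaining libraries and an excess of 21.9 to 24.1. The lists carry no depth, so that a missing peak cannot be told apart from low coverage.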
